A study of Saccharomyces cerevisiae with 12 samples.

Results

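The main hexose transporters of Saccharomyces cerevisiae are the membrane proteins through which the cell takes up glucose, and the genes described here are HXT1, HXT2, HXT3, HXT4, HXT5, HXT6, HXT7 and GAL2. They were found by the gene symbol that the array platform's annotation gives each probe set. Of the 8 genes, 7 had a probe set of their own name, out of 5444 genes and 5489 probe sets tested. HXT6 had none. The probe set annotated to HXT7 carries the suffix of probe sets whose probes match more than 1 transcript, and HXT6 and HXT7 are nearly identical genes that lie next to each other, so its signal cannot be divided between them and it is called HXT6/HXT7 here.

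Expression was measured on 12 Affymetrix yeast arrays in a xylose-utilizing strain, VTT C-10883 (MATα, CEN.PK background), which carries the xylose reductase and xylitol dehydrogenase genes XYL1 and XYL2 of Scheffersomyces stipitis and overexpresses the xylulokinase gene XKS1. All cultures were anaerobic batch fermentations of a medium with glucose and xylose, in which glucose is consumed first and xylose afterwards. The conditions, with 3 arrays each, were the xylose pulse (the xylose consumption phase 1 h after 3.9 g/L of 5-hydroxymethylfurfural, HMF, and 1.2 g/L of furfural were added), the xylose control (the same phase without these inhibitors), the glucose pulse (the glucose consumption phase 1 h after the same addition) and the glucose control. The methods give 3 bioreactors per condition, but they describe the controls both as samples drawn just before the pulse and as a cultivation without one, and in the first case the pulse cannot be told apart from 1 h of cultivation.

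Hexose transporters carry sugar down its gradient without using energy, and S. cerevisiae makes different ones at different glucose levels. In S. cerevisiae, low-affinity carriers such as Hxt1 and Hxt3 serve when glucose is abundant, and carriers of higher affinity such as Hxt2, Hxt4, Hxt6 and Hxt7 when it is scarce. The sensors Snf3 and Rgt2 relieve HXT genes of the repressor Rgt1 when glucose is present, and the repressor Mig1 keeps the high-affinity genes and GAL2 down at high glucose. No transporter of this yeast is dedicated to xylose, which enters through the hexose carriers.

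All values are log2 expression after RMA, so that a difference of 1 is a 2-fold change, and a gene counts as called, higher or lower, where its log2 fold change lay above 1 or below -1 and its p, adjusted by Benjamini-Hochberg over all 5489 probe sets in limma, lay under 0.01. Array medians ranged from 9.68 to 9.74, and arrays of the same condition correlated at 0.992 to 0.998 over probe sets, against 0.920 to 0.931 between a pulse and its own control and 0.637 to 0.784 between the phases. The 4 measured alpha-specific genes read 7.63 to 13.58 and the 7 a-specific genes, which a MATα cell keeps silent, read 2.32 to 8.10, and 2.32 to 6.20 without STE6. Detection calls were not used. HXT2, GAL2, HXT5 in the glucose phase and HXT1 in the xylose phase lay below 6.20, and HXT4 in the xylose control lay within the range that STE6 extends to 8.10. Outside the HXT family, MIG2 in the xylose control averaged below 6.20. So did MIG3, SIP2, GAL7, CSR2, CAT8, ADR1, SIP4, JEN1 and MLS1 in the glucose control. GAL7, CSR2, CAT8, SIP4, JEN1 and MLS1 also averaged below 6.20 in the glucose pulse, and GAL7 in the xylose pulse. A change with such a dim side has no exact size, and its fold is an estimate. In bulk RNA, fewer cells that express a gene and less RNA per cell cannot be told apart. Levels are compared within a probe set only, because the probes of different genes differ in brightness.

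HXT4 encodes a high-affinity carrier, and its expression moved in opposite directions in the xylose and the glucose phase. In the xylose pulse the 3 arrays read 12.47, 12.19 and 12.31, against 6.89, 7.95 and 7.40 in the xylose control. In the glucose pulse they read 8.75, 8.50 and 9.05, against 12.39, 12.17 and 12.25 in the glucose control. Neither pulse overlapped with its control. The xylose control was the dim side of HXT4. The 2 conditions in which HXT4 was high were thus the xylose phase with the inhibitors and the glucose phase without them.

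The pulse changed HXT4 by 4.91 (SE 0.21, 30.2-fold, adjusted p = 7.2e-10) in the xylose phase, an estimate against a dim control, and by -3.51 (SE 0.21, 11.4-fold lower, adjusted p = 1.2e-08) in the glucose phase, where neither side was dim. The test of the difference between these responses gave 8.42 (95% interval 7.77 to 9.07, adjusted p = 1.8e-10). Of all 5489 probe sets, 128 (2.33%) were called higher in the xylose phase and lower in the glucose phase, and HXT4 was the only one of the 7 measured transporters among them. Its level in the xylose pulse was not separated from that in the glucose control, with a difference of 0.05 and a 95% interval of -0.41 to 0.52, and the arrays of the 2 conditions overlapped. At the low end of the order, the xylose control lay below the glucose pulse by a called difference of -1.36 (adjusted p = 4.8e-05).

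HXT3, a low-affinity carrier gene, was also higher after the pulse in the xylose phase. Its arrays read 12.82, 12.89 and 12.94 in the xylose pulse, against 9.63, 10.13 and 9.94 in the xylose control. All 3 pulse arrays were above all 3 controls, by 2.98 on average (SE 0.16, 7.90-fold, adjusted p = 4.0e-09).

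In the glucose phase HXT3 was high with or without the inhibitors. The arrays of the glucose pulse read 13.08, 13.50 and 13.48, against 12.64, 13.06 and 13.11 in the glucose control. These groups overlapped, and their difference of 0.42 (95% interval 0.08 to 0.75, adjusted p = 0.03) did not pass the test. The responses of HXT3 differed between the phases by 2.57 (SE 0.22, adjusted p = 2.9e-07). The xylose control was thus the 1 condition in which HXT3 stood apart and low. The level in the xylose pulse differed from that in the glucose control by -0.05 (95% interval -0.39 to 0.28) and from that in the glucose pulse by -0.47 (95% interval -0.81 to -0.13, adjusted p = 0.0131), and neither was called.

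**Figure D1:**
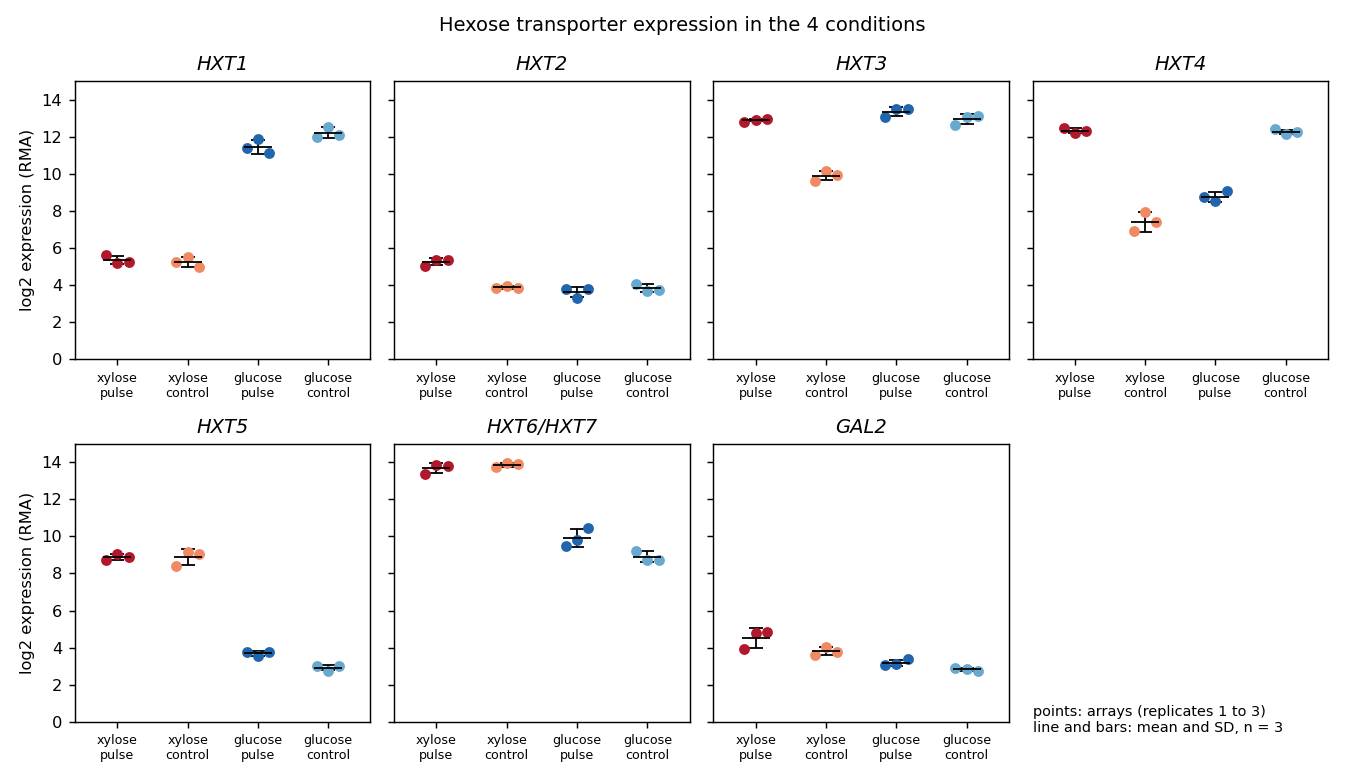
Log2 RMA expression (vertical axes) of the 7 measured hexose transporters on each of 12 arrays, by condition (horizontal axes). Points are arrays, and lines and bars give the mean and SD (n = 3). HXT4 is high in the xylose pulse and the glucose control, at 12.17 to 12.47, HXT3 is low only in the xylose control, and HXT1, HXT5 and HXT6/HXT7 separate the phases.

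HXT2 encodes another carrier of higher affinity, and its probe set was dim throughout. The xylose pulse gave 5.03, 5.37 and 5.35, against 3.81, 3.97 and 3.82 in the xylose control. The glucose pulse gave 3.78, 3.31 and 3.77, against 4.07, 3.67 and 3.73 in the glucose control. HXT2 was therefore highest in the xylose pulse, whose arrays did not overlap with any other condition, while the arrays of the glucose phase overlapped.

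The change of HXT2 was 1.38 (SE 0.14, 2.61-fold, adjusted p = 2.4e-06) in the xylose phase and -0.20 (95% interval -0.51 to 0.11) in the glucose phase, and the responses differed by 1.58 (SE 0.20, adjusted p = 1.3e-05). After a second quantile normalization the xylose response was 1.33, still called, and the value in the glucose phase was -0.79, not called.

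HXT2, HXT3 and HXT4 were the transporters called after the pulse in the xylose phase, all higher. That is 3 of 7, beside 20.2% of all probe sets called in either direction and 11.8% called higher. The median over the 7 was 0.72, beside -0.09 over all genes. In the glucose phase 1 of 7 was called, HXT4 and lower, beside 21.2% of all probe sets called in either direction and 9.55% called lower, and the median over the 7 was 0.35, beside 0.03 over all genes. The responses of 4 of 7 differed between the phases, beside 38.9% of all probe sets. Those of HXT2, HXT3 and HXT4 were more positive in the xylose phase and that of HXT6/HXT7 was lower there.

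HXT6 and HXT7 encode high-affinity carriers that glucose represses. Their shared probe set read 13.37, 13.85 and 13.80 in the xylose pulse, against 13.75, 13.94 and 13.93 in the xylose control. These overlapped, with a difference of -0.20 (95% interval -0.66 to 0.27, adjusted p = 0.424). They lay near the top of the arrays, whose highest values in the xylose phase were 14.36 to 14.45. Whether the signal was compressed at that level was not tested.

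In the glucose phase the same probe set gave 9.47, 9.81 and 10.43 in the pulse, against 9.23, 8.75 and 8.75 in the control. Every pulse array was above every control array, and the pulse arrays were the more scattered (9.90 ± 0.49 in the pulse and 8.91 ± 0.28 in the control, SD, n = 3 each). The difference of 0.99 (SE 0.21, 1.99-fold, adjusted p = 0.00111) passed the p threshold and fell just short of the fold threshold. It was 1.21 and called without the glucose pulse replicate 1, 1.04 and called without the glucose pulse replicate 2, and 1.15 and called without the glucose control replicate 1, so the count of transporters called in the glucose phase was 1 or 2 by which array was left out. The responses differed between the phases by -1.19 (SE 0.30, 95% interval -1.85 to -0.53, adjusted p = 0.00316), which was called, and by -0.93, not called, without the glucose pulse replicate 3.

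HXT1, the low-affinity carrier gene that S. cerevisiae induces at high glucose, was bright in the glucose phase. Its arrays read 11.38, 11.88 and 11.14 in the glucose pulse, against 11.97, 12.53 and 12.11 in the glucose control. All 3 pulse arrays were below all 3 controls. The difference of -0.74 (95% interval -1.17 to -0.30, 1.67-fold lower, adjusted p = 0.00554) passed the p threshold and not the fold threshold.

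In the xylose phase HXT1 was dim, at 5.59, 5.17 and 5.24 in the pulse and 5.23, 5.49 and 4.98 in the control. These arrays overlapped, with a difference of 0.10 (95% interval -0.34 to 0.53). The responses differed by 0.83 (adjusted p = 0.0178), which was not called, and by 1.04, called, without the glucose pulse replicate 2.

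HXT5, a carrier gene that in S. cerevisiae is expressed at slow growth and in starvation, read 3.74, 3.55 and 3.77 in the glucose pulse, against 2.99, 2.76 and 3.02 in the glucose control. The arrays of the pulse all lay above those of the control, and the difference of 0.76 (95% interval 0.39 to 1.14, 1.70-fold, adjusted p = 0.00164) did not reach the fold threshold. Both sides were dim. After a second quantile normalization the glucose control averaged 3.48, against 2.92 without it, so the size of this difference depended on the normalization. In the xylose phase the arrays read 8.70, 9.06 and 8.91 in the pulse and 8.39, 9.18 and 9.05 in the control, and overlapped, with a difference of 0.02 (95% interval -0.36 to 0.40). The difference between the responses, -0.74, was not called (adjusted p = 0.0151).

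GAL2 encodes the galactose permease, which also carries glucose and xylose. It was dim in every condition. The arrays read 3.91, 4.81 and 4.84 in the xylose pulse, against 3.62, 4.04 and 3.74 in the xylose control. They read 3.06, 3.11 and 3.37 in the glucose pulse, against 2.90, 2.86 and 2.73 in the glucose control. The xylose arrays overlapped through replicate 1 of the pulse, and the glucose arrays did not overlap.

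Neither response of GAL2 was called, at 0.72 (95% interval 0.27 to 1.17, adjusted p = 0.00716) in the xylose phase and 0.35 (95% interval -0.10 to 0.80, adjusted p = 0.151) in the glucose phase. Without the xylose pulse replicate 1 the value in the xylose phase was 1.02 and called (adjusted p = 2.2e-05). A second quantile normalization gave -0.12 for the glucose phase.

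**Figure D2:**
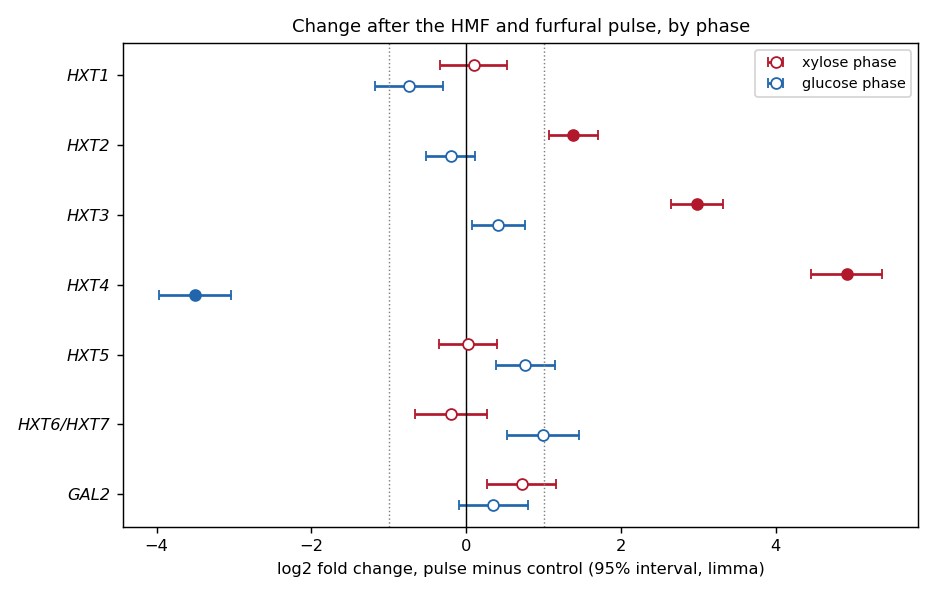
Log2 fold change, pulse minus control (horizontal axis), of each measured hexose transporter (vertical axis) in the xylose phase (red) and the glucose phase (blue). Bars are 95% intervals from limma, filled points were called, and dotted lines mark a log2 fold change of -1 and 1. HXT4 lies at 4.91 in the xylose phase and at -3.51 in the glucose phase.

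Between the sugar phases without inhibitors, 5 of 7 transporters differed, beside 54.9% of all probe sets, with 2 higher in the xylose control (27.8% of all probe sets) and 3 lower there (27.2%). HXT5 and HXT6/HXT7 were the 2 that were higher on xylose. HXT5 averaged 8.87 ± 0.42 in the xylose control and 2.92 ± 0.14 in the glucose control (SD, n = 3 each), a difference of 5.95 (61.8-fold, adjusted p = 1.5e-12). HXT6/HXT7 averaged 13.87 ± 0.10 in the xylose control and 8.91 ± 0.28 in the glucose control (SD, n = 3 each), a difference of 4.96 (31.2-fold, adjusted p = 6.7e-11).

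The genes of both low-affinity carriers were lower in the xylose control. HXT1 averaged 5.24 ± 0.25 there and 12.20 ± 0.29 in the glucose control (SD, n = 3 each), a difference of -6.97 (125-fold lower, adjusted p = 1.4e-12), with the xylose control dim. HXT3 averaged 9.90 ± 0.25 in the xylose control and 12.94 ± 0.26 in the glucose control (SD, n = 3 each), a difference of -3.04 (8.20-fold lower, adjusted p = 4.0e-10). The high-affinity gene HXT4 was lower as well, by -4.86 on the log2 scale with the xylose control as its dim side (adjusted p = 7.9e-11).

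The 2 transporters not called between the controls were the dim ones. HXT2 differed by 0.04 (95% interval -0.27 to 0.36, adjusted p = 0.781), but by -0.90 (adjusted p = 1.1e-04) after a second quantile normalization. GAL2 differed by 0.97 (adjusted p = 6.1e-04), just short of the fold threshold. Its value was 1.06 and called without the xylose control replicate 1, 1.01 and called without the glucose control replicate 1, and 0.17 after a second quantile normalization. For these 2 genes the difference between the controls thus depended on the normalization.

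With the inhibitors present, the phases differed in 6 of 7 transporters, beside 43.7% of all probe sets, with 5 higher in the xylose pulse than in the glucose pulse (20.8% of all probe sets) and 1 lower (22.9%). HXT4 had the opposite order to that of the controls, with 12.32 ± 0.14 in the xylose pulse and 8.76 ± 0.27 in the glucose pulse (SD, n = 3 each), a difference of 3.56 (11.8-fold, adjusted p = 3.4e-09). HXT3 was the 1 transporter not called. HXT1 kept its order, at -6.13 (70.2-fold lower in the xylose pulse, adjusted p = 1.1e-11).

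HXT5 and HXT6/HXT7 also kept theirs, at 5.20 (adjusted p = 1.3e-11) and 3.77 (13.7-fold, adjusted p = 2.1e-09). HXT2 was higher in the xylose pulse by 1.63 (adjusted p = 1.9e-07). GAL2 was higher there by 1.34 (adjusted p = 4.3e-05), and by 0.86, not called, after a second quantile normalization.

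**Figure D3:**
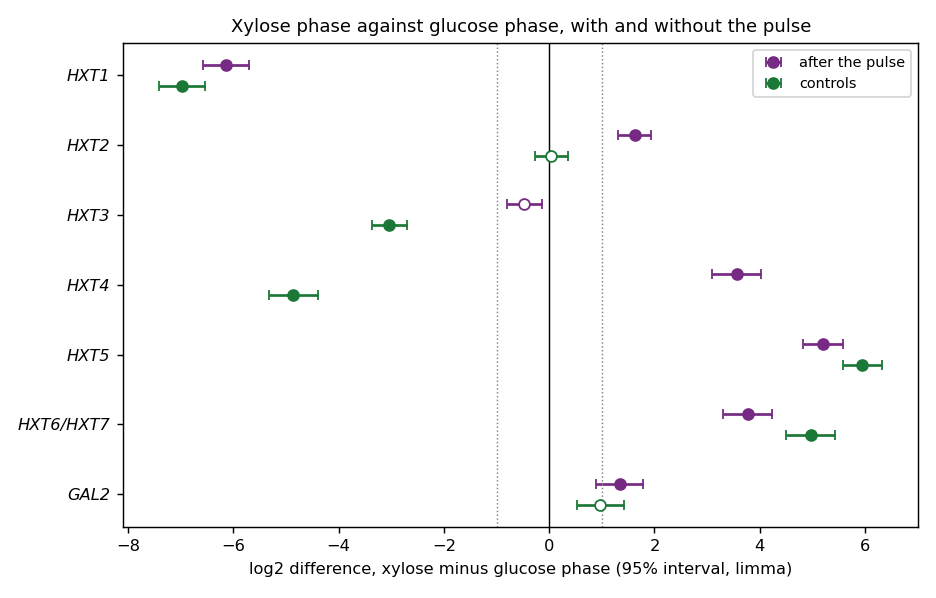
Log2 difference, xylose minus glucose phase (horizontal axis), of each measured hexose transporter (vertical axis) after the pulse (purple) and in the controls (green). Bars are 95% intervals from limma, filled points were called, and dotted lines mark a log2 difference of -1 and 1. HXT4 lies at 3.56 after the pulse and at -4.86 in the controls, while HXT1, HXT5 and HXT6/HXT7 keep their side.

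Taking the conditions crosswise, the xylose pulse differed from the glucose control in 5 of 7 transporters, beside 50% of all probe sets, and HXT3 and HXT4 were the 2 that were not called. The xylose control differed from the glucose pulse in 5 of 7, beside 48.3%, and there HXT2 and GAL2 were not called. Under a second quantile normalization the differences of HXT2 and GAL2 between the xylose pulse and the glucose control, 1.43 and 1.69, were 0.44 and 0.74 and no longer called.

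The transporters followed each other across the 12 arrays to very different degrees, given here as a description over arrays that share 4 conditions. HXT5 and HXT6/HXT7 had the most parallel profiles at this amplitude, with Pearson's r of 0.99 and a root mean square difference of 0.67 between their mean-centred values. HXT1 ran opposite to both (r = -0.996 with HXT5 and -0.992 with HXT6/HXT7). HXT4 followed none of the others closely, with 0.65 against HXT3 as its highest r. Several of these genes are neighbours. HXT4, HXT1 and HXT5 lie in a row with AHT1 between the first pair, and HXT7, HXT6 and HXT3 lie in another row with YDR344C before HXT3, in RefSeq's gene order.

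Outside the family, the genes whose centred profiles lay nearest to HXT4 were DBP2, an RNA helicase gene, ARG3, the ornithine carbamoyltransferase gene, and SRP40, at root mean square differences of 0.56, 0.71 and 0.86. Nearest to HXT3 were GPP2, a glycerol-1-phosphatase gene, YNL193W and YBR096W, at 0.29 to 0.33. TOS6, MKC7 and YNR021W lay nearest to HXT1 at 0.45 to 0.55. For HXT5 they were ERR3, CSR2 and DSF1 at 0.31 to 0.35, and for HXT6/HXT7 AGP2, CAT2 (a carnitine acetyltransferase gene) and EGO4 at 0.29 to 0.33. The probe sets of ERR3 and DSF1 carry the same suffix as that of HXT7, so their signal may come from more than 1 gene. The dim HXT2 had YOR316C-A, ERG8 and SPO16 nearest at 0.15 to 0.21, and the dim GAL2 had SKN7, ANS1 and THI21 at 0.17 to 0.19. HXT4 had the most distant nearest gene of the 7.

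The glucose sensors and the Rgt1 branch set HXT expression in S. cerevisiae. In the xylose phase 2 of 8 such genes were called after the pulse, both higher, a share near the 20.2% of all probe sets. RGT2, the sensor gene of high glucose, averaged 9.94 ± 0.07 in the xylose pulse and 8.62 ± 0.03 in the xylose control (SD, n = 3 each), a change of 1.33 (adjusted p = 1.5e-08). STD1, a corepressor gene of Rgt1, changed by 1.02 (adjusted p = 4.9e-07), but by 0.98 and 0.97, not called, without the xylose pulse replicate 1 or the xylose control replicate 2, and by 0.92, not called, after a second quantile normalization.

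On glucose 1 of the 8 was called after the pulse, beside 21.2% of all probe sets. MTH1, the gene of the other corepressor, averaged 8.99 ± 0.11 in the glucose pulse and 7.74 ± 0.22 in the glucose control (SD, n = 3 each), a change of 1.26 (adjusted p = 4.8e-06). The responses of RGT2, STD1 and MTH1 each differed between the phases, by 1.66, 1.92 and -1.81. Between the controls 5 of 8 were called, a share near the 54.9% of all probe sets, with 3 higher on xylose, namely MTH1 (5.12), RGT1 itself (3.23) and the low-glucose sensor gene SNF3 (2.79). The 2 that were lower, STD1 (-1.66) and the casein kinase gene YCK2 (-1.51), were named after their values were seen.

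In the Snf1 and Mig1 branch, which carries glucose repression, 4 of 16 genes were called after the pulse in the xylose phase, 3 higher and 1 lower, a share near the 20.2% of all probe sets. MIG2, a glucose-induced repressor gene, averaged 8.35 ± 0.22 in the xylose pulse and 5.89 ± 0.49 in the xylose control (SD, n = 3 each), a change of 2.46 (adjusted p = 1.6e-07) with the xylose control dim. HXK2, the hexokinase gene whose product also takes part in glucose repression, averaged 10.59 ± 0.09 in the xylose pulse and 8.28 ± 0.08 in the xylose control (SD, n = 3 each), a change of 2.31 (adjusted p = 3.1e-10). The third was the corepressor gene CYC8 at 1.01, named after its value was seen. ELM1, a gene of a kinase that activates Snf1, fell by 1.06 (adjusted p = 7.3e-06) and was not called when the xylose pulse replicate 1 or the xylose control replicate 2 was left out. MIG2 and HXK2 moved in the same direction as HXT2, HXT3 and HXT4 in this phase, and whether these changes are linked was not tested.

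On glucose 2 of the 16 were called after the pulse, beside 21.2% of all probe sets, the repressor gene MIG3 at 1.33 (adjusted p = 3.8e-06) and ELM1 at -1.05 (adjusted p = 7.4e-06). MIG2 had 0.05 and HXK2 -0.30 there, neither called, and their responses differed from those in the xylose phase by 2.40 and 2.61. Between the controls 3 of 16 were higher on xylose and 3 lower, beside 54.9% of all probe sets called, with MIG3 at 5.78, SIP2, the gene of a Snf1 complex subunit, at 4.68 and HXK2 at -4.90. Hexose phosphorylation, the step after uptake, had 1 of 4 genes higher after the pulse in the xylose phase (HXK2, beside 20.2% of all probe sets called) and 2 of 4 higher in the glucose phase (21.2%), GLK1 at 1.53 and HXK1 at 1.11, the last of which was just under the threshold without the glucose pulse replicate 2 or the glucose control replicate 1. These 2 sugar kinase genes and HXT6/HXT7 are glucose-repressed genes in S. cerevisiae, as are the high-affinity genes HXT2 and HXT4. After the pulse in the glucose phase HXT4 was lower and HXT2 was not called.

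**Figure D4:**
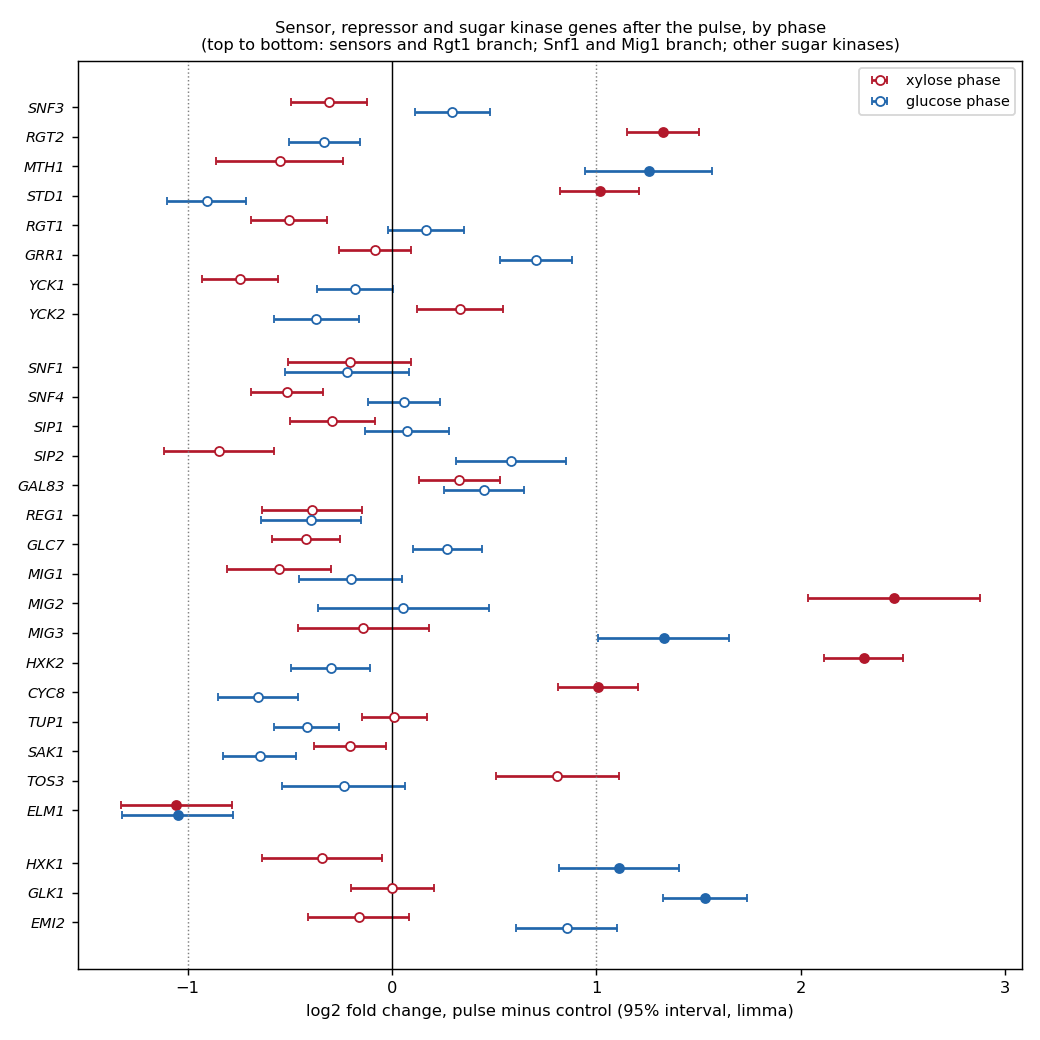
Log2 fold change, pulse minus control (horizontal axis), of the genes for glucose sensing, glucose repression and sugar phosphorylation (vertical axis, in these 3 blocks from the top) in the xylose phase (red) and the glucose phase (blue). Bars are 95% intervals from limma, filled points were called, and dotted lines mark -1 and 1. RGT2, STD1, MIG2, HXK2 and CYC8 were called higher in the xylose phase, and MTH1, MIG3, HXK1 and GLK1 in the glucose phase.

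The list of minor hexose and polyol transporters held STL1 and minor HXT genes, relatives whose carriers contribute little to growth on glucose. Some of its genes were called in each comparison. Of the 9 measured of 10, 5 were called after the pulse in the xylose phase, beside 20.2% of all probe sets, with HXT8 (2.48) and HXT17 (2.03) higher and HXT14 (-2.16) lower, with HXT13 (-1.99) and HXT11 (-1.01) also lower and named after their values were seen. After the pulse on glucose HXT9 (3.84) and HXT11 (3.18) were the 2 called, both higher, a share near the 21.2% of all probe sets. Between the controls 7 of 9 were higher on xylose, beside 27.8% of all probe sets, led by HXT15 (11.13), HXT13 (5.20) and HXT17 (3.82). HXT9 with HXT11, HXT13 with HXT17 and HXT15 with HXT16 are close relatives that can share probes, and many of these levels were dim on 1 side or both. HXT14 was dim in the xylose pulse (3.51) and the xylose control (5.67). HXT17 was dim in the xylose control (6.05) and the glucose control (2.23). The second probe set of HXT9 was called in the xylose phase, at 1.37, where the first had 0.80 and was not, and the second probe set of HXT13 was not called there, at -0.86 with overlapping arrays (adjusted p = 0.101).

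In the galactose regulon, to which GAL2 belongs, the other 6 measured genes gave 1 lower after the pulse in the xylose phase, GAL7 at -1.89, and 2 higher in the glucose phase, PGM2 at 2.21 and GAL7 at 1.83, beside 20.2% and 21.2% of all probe sets called. The glucose value of GAL7 was 1.04 after a second quantile normalization. GAL4, the activator gene of this regulon, had no probe set among those tested. GAL2 itself was not called in either phase.

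Arrestin adaptors and their ubiquitin ligase remove transporters, those of hexoses among them, from the membrane, and their RNA is a separate readout from that of the carriers. Which of the listed adaptors act on hexose transporters was not tested. In limma 0 of 12 passed both thresholds after the pulse in the xylose phase, beside 20.2% of all probe sets, and 5 of them had an unadjusted p under 0.05. ART10 (-0.89), ROG3 (0.85) and ART5 (0.55) passed the adjusted p threshold and not the fold threshold. ROG3 and ART5 were named after their values were seen. In the glucose phase BUL1 (1.63), CSR2 (1.31) and ART10 (1.21) were higher, 3 of 12 beside 21.2% of all probe sets called, with CSR2 at 0.62 and not called after a second quantile normalization. Between the controls 6 of 12 were higher on xylose and 1 lower, a share called near the 54.9% of all probe sets, with CSR2 at 6.32. Of 12 other genes that glucose represses, 10 were higher in the xylose control than in the glucose control, beside 27.8% of all probe sets. CAT8 had 7.25, ADR1 7.02 and HAP4 6.89. HXT5 and HXT6/HXT7 had the same direction, HXT4 had the opposite one, and HXT2 was not called. After the pulse, JEN1 (2.33) and SIP4 (2.31) were higher and MLS1 (-2.28) lower in the xylose phase, beside 20.2% of all probe sets called. In the glucose phase 4 of the 12 were higher, beside 21.2% of all probe sets called. Of these 4, CAT8 had 0.78 and was not called after a second quantile normalization. Among the main transporters, HXT3, HXT5, HXT6/HXT7 and GAL2 had values above 0 in that phase, none of them called. HXT1, HXT2 and HXT4 had values below 0 there, and HXT4 (-3.51) was called. At an unadjusted p under 0.05 in limma, 8 of the 12 were higher in the glucose phase and 2 lower. SUC2, a lower one named after its value was seen, averaged 9.65 in the glucose pulse and 10.54 in the glucose control.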

How the data were processed

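The deposited values were log2 expression. The authors made them from the array scans with RMA, which corrects background, normalizes arrays by quantiles and summarizes each probe set. Of 5705 probe sets, 5489 had 1 gene in the platform's annotation and 216 had none, and 12 symbols were replaced by their current RefSeq form. Of a gene's several probe sets (43 genes) the brightest on average stood for it. A model with 1 mean for each of 4 conditions was fitted to the 12 arrays in R 4.3.3 by limma 3.58.1 (residual degrees of freedom 8, prior 4.53), and p-values were adjusted over all 5489 probe sets. The number of arrays limits the precision, and p-values set each difference against the spread of arrays within conditions. That spread was pooled over the 4 conditions and moderated by limma's prior from all probe sets. Members and gene lists were chosen with earlier results of these data known. The genes named were all members, the 3 nearest profiles of each, and up to 3 called genes of each list with the largest change in each pulse comparison and between the controls. Others are marked as named after their values were seen. The labels number the replicates of each condition from 1 to 3. Deviations of same-numbered pulse and control arrays from their condition means correlated at 0.569, 0.299 and 0.305 in the xylose phase and at 0.474, 0.381 and 0.145 in the glucose phase, all above 0.1. Unlike numbers reached as much for pulse 3 with control 2, at 0.328 in the xylose phase and 0.285 in the glucose phase, and unlike pairs with a replicate 1 were all negative. Deviations from a condition mean cancel within the condition, so a positive value of replicate 1 with 1 largely forces those negative values. They are not separate evidence. The same-numbered values set replicate 1 apart but do not tell 2 from 3, and the labels do not say what the numbers mark. Between the controls the values were 0.419, 0.237 and 0.0687. The fit was tested on simulated data. Alternatives were a replicate block, fits to only the arrays compared, inclusion of unnamed probe sets, removal of the dimmest 25%, quantile normalization a second time, median centring, a robust and trended prior, a threshold of 0.05 for the adjusted p and leaving out each array. Figures were drawn with matplotlib 3.10.9 in Python 3.11.15.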

Additional observations from a re-analysis of the deposited data

Results flagged for a closer look

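Responses to the pulse that differed between the phases are given here as the response in the xylose phase minus that in the glucose phase, each called by its own contrast (limma). Among the main hexose transporters they were HXT2 (1.58), HXT3 (2.57), HXT4 (8.42) and HXT6/HXT7 (-1.19). Among the minor transporters they were HXT8 (1.96), HXT9 (-3.04), HXT11 (-4.19), HXT13 (-1.86), HXT14 (-2.74), HXT15 (-1.17) and HXT17 (1.86). Second probe sets gave -1.16 for HXT9, called, and -0.80 for HXT13 and 1.35 for HXT17, neither called. Among regulators and sugar kinases RGT2 (1.66), STD1 (1.92), MIG2 (2.40), CYC8 (1.66) and HXK2 (2.61) had the more positive response in the xylose phase, and MTH1 (-1.81), MIG3 (-1.47), SIP2 (-1.43), HXK1 (-1.45) and GLK1 (-1.53) in the glucose phase. In the galactose regulon GAL7 (-3.72) and PGM2 (-2.30) had the more positive response in the glucose phase, as had the arrestin and ligase adaptor genes CSR2 (-1.30), ART10 (-2.10) and BUL1 (-1.46). Of the glucose-repressed genes, JEN1 had 1.65, MLS1 -2.77, CAT8 -1.29 and ADR1 -2.78. Only genes named in the text are counted here.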

How the results depend on the processing

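The dim probe sets limit these results. HXT2, HXT5 and GAL2 belonged to the dimmest 25% of probe sets by their mean, and leaving those out removed their calls. The transporters called then numbered 3 between the pulses and 2 between the xylose pulse and the glucose control, against 6 and 5. The calls over all pathway lists then numbered 4 against 15 for the pulse in the xylose phase, 8 against 16 for the pulse in the glucose phase, 20 against 40 between the controls, 15 against 31 between the pulses, 17 against 35 between the xylose pulse and the glucose control, 18 against 36 between the xylose control and the glucose pulse, and 14 against 32 for the difference between the responses, because fewer genes were tested. A second quantile normalization called 2 transporters in the glucose phase against 1 (HXT6/HXT7 at 1.03) and 3 between the xylose pulse and the glucose control against 5. It turned the sign of differences that were not called, GAL2 in the glucose phase (-0.12), HXT2 between the controls (-0.90), HXT2 between the xylose control and the glucose pulse (-0.11) and HXT3 between the xylose pulse and the glucose control (0.0281), and the cause was not tested. Leaving out 1 array at a time gave 1 to 2 transporters called in the glucose phase, 3 to 4 in the xylose phase, 5 to 6 between the controls and 3 to 5 for the difference between the responses. It turned only signs of differences near 0 that were not called, of HXT1 (-0.0329 to 0.23) and HXT5 (-0.22 to 0.17) after the pulse in the xylose phase, HXT2 between the controls (-0.0314 to 0.17), and HXT3 (-0.20 to 0.0324) and HXT4 (-0.0191 to 0.12) between the xylose pulse and the glucose control. With replicates 2 and 3 only, chosen after seeing that replicate 1 deviates alike in every condition, 2 transporters were called in the glucose phase (HXT6/HXT7 at 1.37), and HXT1 (-0.0359) and HXT5 (-0.13) turned sign in the xylose phase. With the replicate number as a block, 3 transporters were called in the xylose phase, 1 in the glucose phase and 5 between the controls, as without it, and the block changed no other call of a transporter. Under the alternatives that kept every array, 356 of 364 differences of the transporters kept their direction and their side of the thresholds, as did 570 of 588 with 1 array left out. The 364 do not include HXT2, HXT5 and GAL2 where the dimmest 25% were removed, so the calls lost there are not counted as changes.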
